A study of Mus musculus with 2 samples.

Results

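The Src family of protein tyrosine kinases is represented here by 7 genes, Fgr, Lyn, Fyn, Src, Yes1, Lck and Blk, and is described together with Syk and Btk, the kinases that act directly after it. Members were the gene probes of the arrays that carry one of these 9 gene names, and 12 of the 41174 gene probes did. These are 9 of the 19487 named genes with a value. Granulocytes and monocytes had been sorted from bone marrow of wild-type male mice of the strain C57BL/6, total RNA of each was labelled with Cy3, and 1 array was hybridised for each of the 2 cell types. Neither the surface markers used in the sort nor the age and number of the mice is stated in the sources used here. No replicate exists for either cell type, so no test was made, the number of arrays limits the precision, and each difference describes these 2 arrays.

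Src family kinases sit on the inner face of the plasma membrane. When an antigen receptor, an Fc receptor or an integrin is engaged, they phosphorylate paired tyrosines in the receptor's signalling chain, a motif called the ITAM. Syk docks on the phosphorylated ITAM, and Syk and Btk then act on adaptors and on phospholipase C gamma. In granulocytes and monocytes, Fgr and Lyn are among the family members best known for adhesion, phagocytosis and the oxidative burst. Lck belongs to T cells, Blk to B lineage cells, and Fyn, Src and Yes1 are made by many tissues. Lyn also phosphorylates inhibitory receptors, through a motif called the ITIM that recruits phosphatases.

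On these arrays the kinases of this family divided by gene. Fgr was 4.90-fold higher in granulocytes and Syk 3.15-fold higher, while Lyn and Btk had bright probes on both arrays that differed by less than 2-fold. Lck was 15.8-fold lower in granulocytes, and Fyn was at least 13.7-fold lower, both with dim signals in granulocytes. Src, Yes1 and Blk had dim probes on both arrays. The scale is the processed signal of a spot, an intensity with the background subtracted, divided by that array's 75th percentile and given as log2. A difference is granulocyte minus monocyte on that scale unless a fold is named. The folds depend on that division. Without it the log2 difference was 1.42 for Fgr, 0.79 for Syk, -0.10 for the brighter Lyn probe and -0.20 for Btk.

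All 9 genes were well above background on at least 1 array, and 7 of them on both. At the size used to count genes, 4-fold, 2 of the 9 were higher in granulocytes (Fgr, and Yes1 by a bound) and 2 were higher in monocytes (Lck, and Fyn by a bound). Among all 15429 named genes that were well above background on 1 array or both, 8.57% passed that size toward granulocytes and 10.5% toward monocytes. With 9 members these shares give no basis for calling the kinases different from other genes. The 9 differences had a median of 0.78, beside a median of 0.44 over all genes, and 60.9% of all genes had a positive difference.

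The 2 arrays came from 1 slide and 1 scan. The 75th percentile was 339.4 in granulocytes and 620.9 in monocytes, so scaling raised every difference by 0.87. Without it the median of all genes was -0.43, and the counts at 4-fold were 577 higher in granulocytes and 2997 higher in monocytes, against 1323 and 1614 with it. Differences are therefore also given relative to the median of all genes. Of the markers used to check the labels, 7 of 11 granulocyte genes passed 4-fold toward granulocytes and 9 of 10 monocyte genes toward monocytes. The granulocyte markers S100a8, S100a9, Ngp and Camp came under it (1.06 to 1.87) and were bright on both arrays. The summed scaled level of the granulocyte markers was 4334 in granulocytes and 1054 in monocytes. That of the monocyte markers was 24.01 in granulocytes and 766 in monocytes, so granulocyte markers had the higher sum on both arrays. The part of granulocyte RNA in the monocyte values was not tested. In bulk samples such as these, fewer cells of a type and less RNA per cell cannot be told apart.

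**Figure D1:**
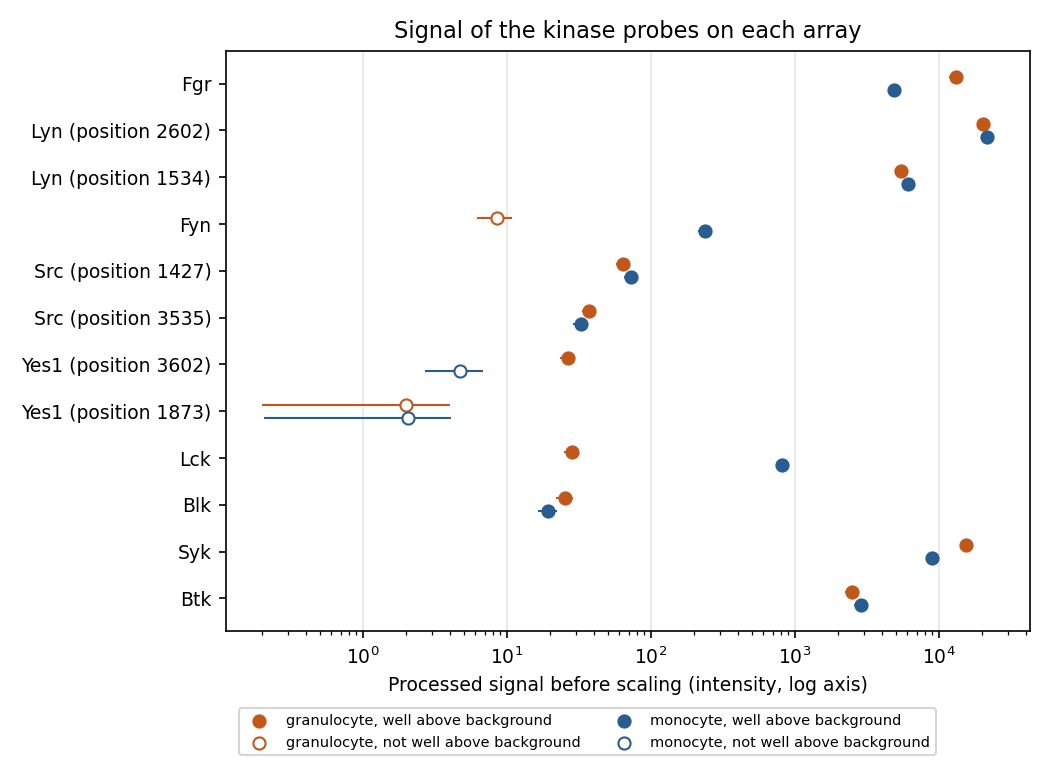
Processed signal of the 12 kinase probes before scaling, on a log axis, with the granulocyte array in orange above the monocyte array in blue. Bars are the scanner software's error for a signal (shortened at the low end where they would reach 0), filled points are well above background and open points are not. Lck and Fyn sit far to the left in granulocytes, and Fgr and Syk to the right. Signals of different probes are not comparable with each other.

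Because the kinases share a fold, the 60-base probes were set against each other without gaps over stretches of at least 30 bases. The closest pair among the 12 was the first Src probe and the Blk probe, with 34 identical bases of 60 (56.7%), and each other pair of members had at most 51.2%. These probes are printed because they are the ones in which members are most alike, and because both lie in the part of the gene that encodes the kinase domain, which the family shares. Capitals mark the bases that are identical between them.
Src: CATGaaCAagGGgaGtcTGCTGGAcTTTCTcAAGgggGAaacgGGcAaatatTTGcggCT
Blk: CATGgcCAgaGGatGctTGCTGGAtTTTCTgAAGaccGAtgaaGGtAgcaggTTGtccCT
In mm8, the build of the files, they lie at chr2:157159041-157159972 (plus strand) and chr14:62332606-62333743 (minus strand). The Src and Blk probes span 932 and 1138 genomic bases, so each crosses at least 1 exon junction. Whether any probe took up RNA of a relative was not tested.

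Fgr, a Src family kinase of granulocytes, monocytes and some B cells, had a signal of 13127 ± 1313 in granulocytes and 4906 ± 491 in monocytes (the error is the scanner software's for 1 spot). Its single probe lies at chr4:132273683-132273742 on the plus strand, at base 3051 of the listed transcript. Its scaled level was 5.27 in granulocytes and 2.98 in monocytes, a difference of 2.29, or 1.85 above the median of all genes. The 2 errors amount to 0.20 on the difference, which covers the reading of the spots and not the spread between mice or sorts. The difference was 1.42 without scaling, 1.78 with spike-in scaling and 1.80 with quantile normalisation, each under 4-fold. A larger difference than that of Fgr was found for 6.28% of all genes.

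Lyn, the family member that acts on both activating and inhibitory receptors, was read by a pair of probes. The probe at chr4:3717973-3718032 (plus strand, base 2602) had a signal of 20285 ± 2028 in granulocytes and 21678 ± 2168 in monocytes. The probe at chr4:3716905-3716964 (plus strand, base 1534) gave 5494 ± 549 in granulocytes and 6139 ± 614 in monocytes. The unscaled signals were slightly lower in granulocytes on both probes, by less than the software error on the difference (0.20 as log2 for each probe). After scaling the differences were 0.78 and 0.71, both positive and both under 2-fold, and they turned to -0.10 and -0.16 without scaling. Relative to the median of all genes, the first probe gave 0.33. Lyn thus differed little between the arrays on either probe, and its direction depended on the scaling.

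Syk, the kinase with paired SH2 domains that docks on phosphorylated ITAMs, had a signal of 15506 ± 1551 in granulocytes and 8998 ± 900 in monocytes. The probe lies at chr13:52660724-52660783 on the plus strand, at base 4602 of the transcript. Scaled levels of 5.51 in granulocytes and 3.86 in monocytes gave a difference of 1.66, or 1.21 above the median of all genes. The difference was 0.79 without scaling, 1.09 after quantile normalisation and 1.14 with spike-in scaling, so its direction was the same in each. Ptk2b (1.44), a kinase of adhesion sites, was among the nearest to it of the other cytoplasmic kinases, over these 2 arrays only.

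Markers of other blood cells that could stand beside granulocytes in a sort had positive list medians, as Fgr and Syk had positive differences, although Ms4a2 of the basophil and mast cell list gave -0.07 and the eosinophil markers Epx and Prg2 turned to -0.49 and -0.25 without scaling. Of 7 basophil and mast cell markers, 2 passed 4-fold toward granulocytes (median 1.76, summed level 332 in granulocytes and 11.1 in monocytes). Hdc alone made up 99.0% of that sum in granulocytes and 90.6% in monocytes, and the rest summed to 3.40 and 1.04. None of 5 eosinophil markers passed 4-fold (median 1.57, summed level 22 in granulocytes and 9.71 in monocytes), nor did any of 7 erythroid markers (median 1.59, 221 in granulocytes and 64.5 in monocytes). Hbb-bt made up 96.0% of the erythroid sum in granulocytes and 95.6% in monocytes. The part of such cells in the Fgr and Syk values was not tested.

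Btk, the Tec family kinase that is recruited to membrane lipid and activates phospholipase C gamma 2, was printed 10 times on each array, and 1 spot on each was left out as an outlier. Its remaining spots ran from 2433 to 2558 in granulocytes (median 2486, mean 2488) and from 2794 to 2911 in monocytes (median 2871, mean 2858). The spot signals did not overlap, and before scaling the monocyte array was the higher. After scaling the difference was 0.67, and it was -0.20 without scaling, so the direction turned with the scaling. Over the 9 array positions the scaled difference ran from 0.63 to 0.70 (SD 0.02), which shows how closely repeated spots agreed and says nothing of other mice. The probe is at chrX:129888872-129888931 on the minus strand. Its value lay 0.23 above the median of all genes.

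**Figure D2:**
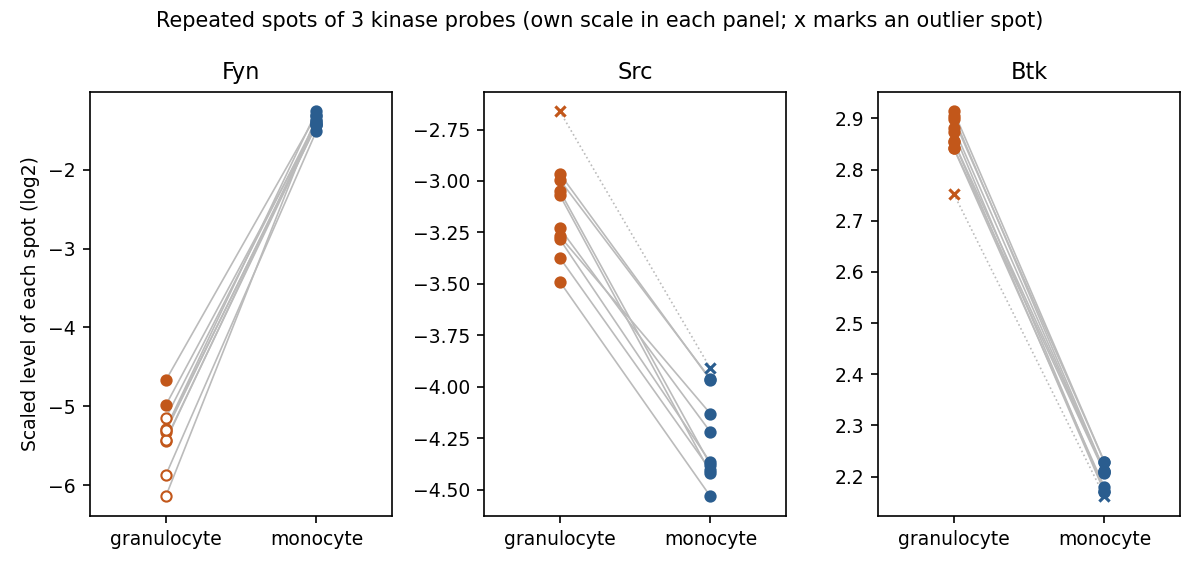
Scaled log2 level of each repeated spot of the Fyn, Src (base 3535) and Btk probes, granulocytes left and monocytes right, with a line joining the spots at the same position. Open points are not well above background and crosses are outlier spots that were left out. Fyn spots are lower in granulocytes at all 10 positions, and Src and Btk spots are higher at the 9 positions kept, although Btk turns to lower in granulocytes without scaling.

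Lck, the kinase that phosphorylates the T cell receptor chains, gave the largest measured difference among the 9 genes. Its signal was 28.2 ± 3.44 in granulocytes and 816 ± 81.6 in monocytes, well above background on both arrays but dim in granulocytes. The scaled levels were -3.59 in granulocytes and 0.39 in monocytes, a difference of -3.98 and 4.43 below the median of all genes. Only 1.67% of all genes had a lower value. The probe lies at chr4:129050906-129050965 on the minus strand. The difference was -4.85 without scaling and -2.56 with normexp background correction, which adds an offset of 50 and so pulls dim signals together.

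Fyn, the broadly expressed family member that works beside Lck in T cells, was printed 10 times at chr10:39254149-39254208 on the plus strand. The spot signals ran from 4.81 to 13.3 in granulocytes (median 8.56) and from 218 to 259 in monocytes (median 236). The ranges did not overlap, and 2 of 10 spots in granulocytes, against 10 of 10 in monocytes, were well above background. Fyn was therefore given a bound, at least 13.7-fold lower in granulocytes. With normexp the value was -1.31, under 4-fold.

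Lck and Fyn are both made by T cells and natural killer cells, so the markers of those cells are given beside them. Of 15 T cell markers, 0 passed 4-fold toward granulocytes and 4 toward monocytes, with a median of -1.15. They did not move together: Thy1 gave -5.06 (-1.54 by its other probe) and Cd3g -3.44, but Cd3e gave 0.44 (-0.43 without scaling) and Cd3d 1.76. With normexp Cd3g, Cd247 and Bcl11b came under 4-fold (-1.98, -0.60 and -0.36), and Thy1 did not (-3.62). The summed scaled level of the T cell markers was 9.80 in granulocytes and 8.89 in monocytes. Cd3d made up 46.1% of that sum in granulocytes and Thy1 35.1% in monocytes. Of the T cell markers, Cd247, Cd28 and Bcl11b were not well above background in granulocytes, and all were in monocytes.

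Of 12 natural killer cell markers above background, 8 passed 4-fold toward monocytes, and the median was -2.71. Their summed level was 2.17 in granulocytes and 19.8 in monocytes. Nkg7 made up 58.9% of that sum in granulocytes and 62.9% in monocytes, and the rest summed to 0.89 and 7.35. Il2rb, an interleukin receptor chain, gave -4.13, and Klrd1, a killer cell lectin receptor, gave -4.53. With normexp Il2rb (-3.27), Klrd1 (-2.76) and Nkg7 (-3.22) still passed 4-fold. Klrb1c, Klrk1, Gzmb, Tbx21 and Txk then came under it (-0.47 to -1.65). Klre1 gave 1.75 by one probe and -1.59 by the other. Ncr1, a defining receptor of natural killer cells, was well above background on neither array. Among markers of plasmacytoid dendritic cells, 6 of 9 passed 4-fold toward monocytes (median -2.34, summed level 10.8 in granulocytes and 31.6 in monocytes). Runx2 made up 41.9% of that sum in granulocytes, where the rest summed to 6.29. Bst2 made up 72.9% in monocytes, where the rest summed to 8.59. Pacsin1, among those that passed, had probes from -3.24 to 0.65. With normexp Tcf4 (-2.20) and Bst2 (-2.44) still passed it, and Siglech, Pacsin1, Klk1 and Cox6a2 did not (-0.89 to -1.83). The part of such cells in the Lck and Fyn values was not tested.

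**Figure D3:**
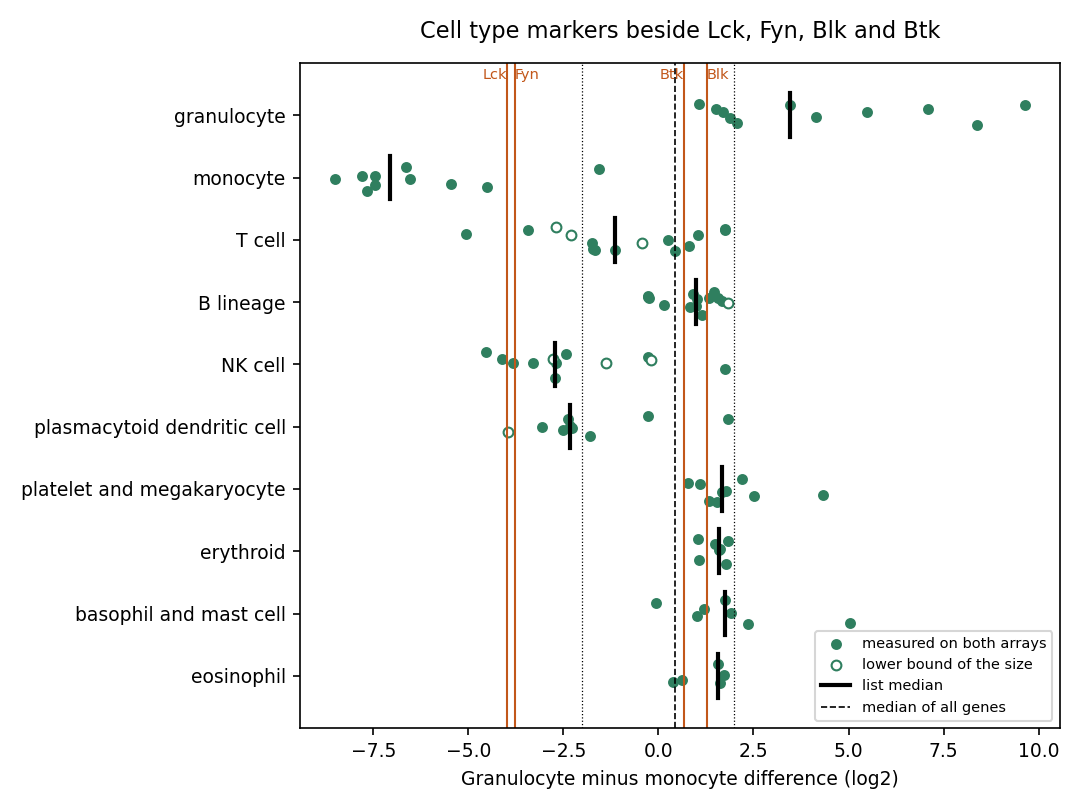
Granulocyte minus monocyte difference of each marker gene of 10 cell types, 1 point a gene, with open points for bounds and a black bar for the median of a list. Orange lines mark Lck, Fyn, Btk and Blk, dotted lines 4-fold and the dashed line the median of all genes. Natural killer cell markers have a median of -2.71 and T cell markers of -1.15, between the median of all genes and the values of Lck and Fyn; the Btk line would lie at -0.20 without scaling.

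Src, the founding member of the family, was read by a pair of dim probes. The first (printed above, base 1427) had a signal of 63.9 ± 6.79 in granulocytes and 72.3 ± 7.61 in monocytes. The second, at chr2:157162928-157162987 on the plus strand (base 3535), was printed 10 times with 1 outlier on each array, and its spots ran from 30.2 to 43.5 in granulocytes (median 36.2) and from 26.8 to 39.8 in monocytes (median 30.1). The unscaled spot ranges overlapped. The scaled differences were 0.69 and 1.07, and without scaling the first turned to -0.18 while the second gave 0.20.

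Yes1, the close relative of Src named for its viral counterpart, was also read by a pair of probes. The probe at chr5:32962704-32962763 (plus strand) had a signal of 26.6 ± 3.30 in granulocytes and 4.74 ± 2.05 in monocytes, where it was not well above background. That makes Yes1 at least 5.14-fold higher in granulocytes by this probe, or at least 2.36 as log2. The bound came down to 1.49 without scaling, 1.85 with spike-in scaling and 1.10 with normexp, each under 4-fold. The second probe, at chr5:32889651-32889710 (plus strand), had 2.01 in granulocytes and 2.05 in monocytes and was well above background on neither array, so it gives no direction.

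Blk, a kinase of the B lineage, had a signal of 25.4 ± 3.34 in granulocytes and 19.2 ± 2.91 in monocytes. The scaled difference was 1.27, or 2.42-fold, and 0.40 without scaling. Its errors amount to 0.29 on the difference, the widest of the genes measured on both arrays. Both signals were of the order of the local background around the spot, 26 in granulocytes and 25 in monocytes. Of 14 B lineage markers, none was 4-fold apart in either direction, with a median of 1.0, and their summed level was 59.3 in granulocytes and 61.6 in monocytes. Ighm alone made up 70.4% of that sum in granulocytes and 80.3% in monocytes, and the rest summed to 17.6 and 12.1. The part of B lineage cells in the values of Blk, Btk, Lyn and Syk was not tested.

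The order of the 9 differences was Yes1 (at least 2.36), Fgr, Syk, Blk, Lyn, Src, Btk, Fyn (a bound of -3.78) and Lck. Lyn, Src and Btk (0.78, 0.69 and 0.67) lay closer together than the software error on their differences (0.20, 0.22 and 0.20), so they have no order among themselves. The places of Yes1 and Fyn rest on bounds. No order of levels is given, since signals of different probes cannot be set against each other. All 9 differences moved down when the scaling was left out, and the sign of Lyn, Src and Btk then turned negative, leaving 4 genes with a positive difference in place of 7.

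**Figure D4:**
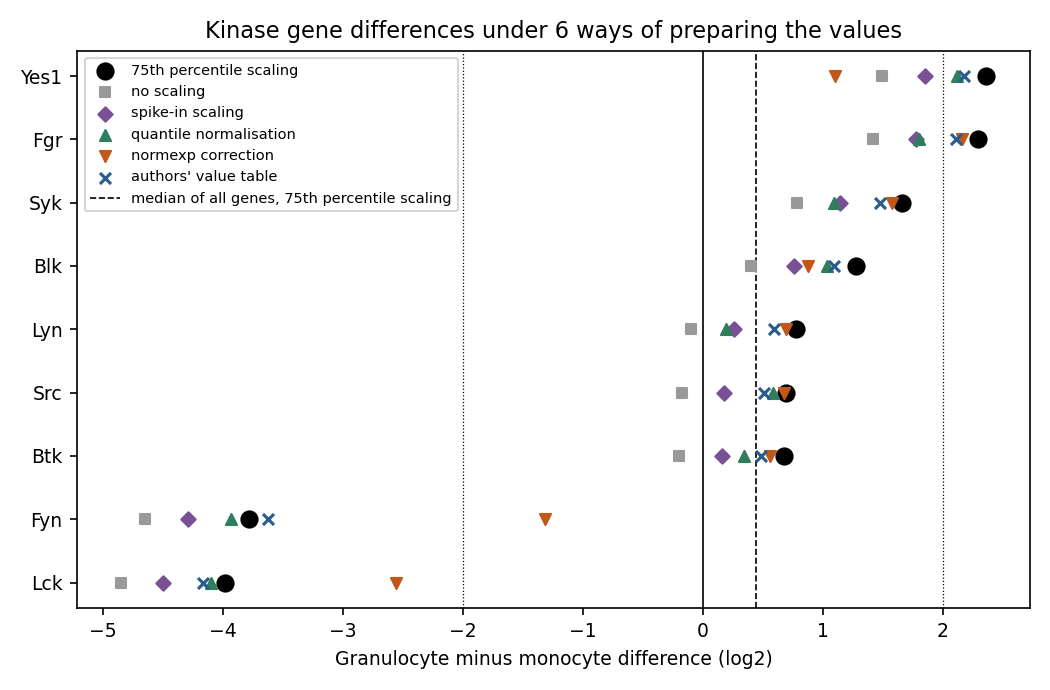
Granulocyte minus monocyte difference of the 9 kinase genes under 6 ways of preparing the values, with dotted lines at 4-fold in each direction. Lck and Fyn stay below 0 and Yes1, Fgr, Syk and Blk above it in all 6, whereas Lyn, Src and Btk fall just below 0 without scaling.

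The promoters of Fgr and Lck, the genes with the largest measured difference in each direction, are printed as RefSeq gives them for GRCm38.p6, from 250 bases before to 50 bases after each start. RefSeq entries were matched for 7 of the 9 genes, 9 entries in all, with a second start for Lck and for Syk. No entry was matched for Lyn and Blk. Both strands were searched for GGAAGT, letters bound by ETS factors such as PU.1, and for TGTGGT, letters bound by RUNX factors. Capitals mark the matches. The Lck entries are an upstream and a downstream start of a gene on the minus strand.
Fgr (chr4:132973845-132974144, plus strand): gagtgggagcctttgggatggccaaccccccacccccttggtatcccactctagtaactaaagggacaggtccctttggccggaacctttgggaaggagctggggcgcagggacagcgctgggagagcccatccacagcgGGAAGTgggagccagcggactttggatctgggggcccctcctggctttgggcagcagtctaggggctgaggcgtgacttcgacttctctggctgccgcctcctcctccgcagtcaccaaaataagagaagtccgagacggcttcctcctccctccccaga
Lck upstream start (chr4:129573592-129573891, minus strand): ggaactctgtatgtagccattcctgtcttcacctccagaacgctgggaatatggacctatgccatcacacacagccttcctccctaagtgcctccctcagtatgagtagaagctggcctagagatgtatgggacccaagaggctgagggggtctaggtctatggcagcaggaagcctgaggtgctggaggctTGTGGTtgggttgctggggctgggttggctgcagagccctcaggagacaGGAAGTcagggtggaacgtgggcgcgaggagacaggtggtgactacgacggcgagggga
Lck downstream start (chr4:129558323-129558622, minus strand): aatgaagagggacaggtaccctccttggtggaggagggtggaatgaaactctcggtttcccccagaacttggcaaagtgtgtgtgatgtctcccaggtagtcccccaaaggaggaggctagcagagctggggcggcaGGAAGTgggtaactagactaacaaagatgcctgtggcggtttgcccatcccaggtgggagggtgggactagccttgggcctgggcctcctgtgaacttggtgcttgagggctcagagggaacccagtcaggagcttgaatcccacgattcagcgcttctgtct
The GGAAGT letters began 110 bases before the start of Fgr, and 9 and 113 bases before the upstream and downstream starts of Lck. TGTGGT began 58 bases before the upstream start of Lck. Among the windows printed, each held GGAAGT, and only that of the upstream Lck start held TGTGGT. Beyond these, GGAAGT lay 2 bases after the second start of Syk and TGTGGT lay 248 bases before the start of Yes1. In all, 4 of the 9 entries held GGAAGT, beside 23.8% of all 32851 promoters, and 2 held TGTGGT, beside 16.8%. A match is a description of letters and shows no binding, and the windows of Src, Fyn and Btk and the first of Syk held neither. GC content ran from 49.3% for Btk to 82.3% for Src among the first entries of each gene, and was 62.7% for Fgr and 58.3% for the upstream start of Lck, beside a median of 52.7% over all promoters.

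The other cytoplasmic tyrosine kinases gave a setting for the 9. Of 18 with a probe, 17 were above background, 2 passed 4-fold toward granulocytes and 2 toward monocytes, with a median of 0.65. Bmx, a Tec family kinase related to Btk, gave 4.14, and Fer, a kinase of the Fes group, 3.10 (1.72 by its lowest probe). Txk, a Tec family kinase of T cells and natural killer cells and also in the list of natural killer cell markers, gave -3.82 (-1.64 by its other probe and -1.65 with normexp), the value nearest to that of Lck. Matk, a relative of Csk, gave -2.32 by one probe and 1.70 by another, so its direction is unsettled. Csk, which shuts the family off by phosphorylating its C-terminal tyrosine, gave 0.82, nearest to Lyn, but -0.06 without scaling. Zap70, the relative of Syk in T cells, chosen after its value was seen, gave -1.71 on signals of 48.6 in granulocytes and 291 in monocytes, against 1.66 for Syk.

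Among the remaining neighbours by value, Fer was nearest to Fgr, Srms and Tec to Src and to Btk, and Fes and Ptk2b to Blk. Srms (0.65) and Tec (0.64), like Src and Btk, turned negative without scaling (-0.23 each). This likeness rests on 2 arrays and says nothing of function.

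The list of ITAM chains and related adaptors, most of which Syk docks on, had 12 genes measured, of which 2 passed 4-fold toward granulocytes and 2 toward monocytes, with a median of 0.65. Clec1b, a receptor with a single ITAM-like motif best known from platelets, gave 4.32, and 3 of 9 platelet and megakaryocyte markers, itself among them, passed 4-fold toward granulocytes (summed level 34.5 in granulocytes and 7.31 in monocytes). Itgb3 made up 76.4% of that sum in granulocytes and 78.8% in monocytes, and gave 2.19 by one probe and 0.47 by the other. Hcst, the adaptor DAP10, which recruits a lipid kinase and carries no ITAM, gave 3.21. The T cell receptor chains Cd3g and Cd247 were lower in granulocytes, by -3.44 and at least 6.41-fold. With normexp both came under 4-fold (-1.98 and -0.60), and Cd247 did so with quantile normalisation (-0.82) and by its other probe (-0.56). Tyrobp (1.59) and Fcer1g (1.57), the ITAM adaptors used by myeloid receptors and chosen after their values were seen, stayed positive without scaling (0.72 and 0.70).

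Receptors and integrins that signal through these kinases had a positive difference for 20 of 24 genes with the scaling used. Of the 24, 12 passed 4-fold toward granulocytes and 2 toward monocytes, with a median of 1.99 beside 0.44 for all genes, and of 1.55 when the probes of a gene were averaged. Over all genes the shares were 8.57% and 10.5%. The list was chosen with earlier results of these data known, so the comparison is only a description. Csf3r (3.45), among the 12, is also in the list of granulocyte markers. Without scaling Itgb2 (1.65), Itgam (1.83), Itgb3 (1.32), Clec5a (1.31) and Cd44 (1.25) came under 4-fold, and the median was 1.12. Fpr1, a receptor for bacterial formyl peptides, gave 8.21, and Clec4d, a lectin receptor for mycobacterial lipid, 6.00. Fcgr4, an activating IgG receptor, gave 4.64, and Trem1, which pairs with Tyrobp, 4.20. On the other side, Trem2, which also pairs with Tyrobp, gave -6.00, and Fcgr1, the high-affinity IgG receptor, -5.99. The Trem family thus had members with opposite differences. Itgb2 (2.52) and Itgam (2.71), the beta and alpha chains of the integrin Mac-1 and chosen after their values were seen, had signals of 52888 and 19053 in granulocytes, against 16898 and 5342 in monocytes.

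Of 17 inhibitory receptors with ITIM motifs, which Lyn phosphorylates, 6 passed 4-fold toward granulocytes and none toward monocytes, with a median of 1.56. The shares of all genes were 8.57% and 10.5%. The highest were Cd33 (4.97) and Siglece (3.27), which bind sialic acid, Pilra (4.30), a paired immunoglobulin-like receptor, and Cd300lf (4.25), which binds lipid. Siglece was dim, with a signal of 152 in granulocytes and 28.8 in monocytes. Without scaling all 4 still passed 4-fold (2.40 to 4.10), and with normexp Siglece did not (1.94). Clec4a2 (2.14) and Cd200r1 (2.42), also among the 6, came under 4-fold without scaling (1.27 and 1.55). The list median was 0.69 without scaling and 1.10 with normexp, beside -0.43 and 0.53 over all genes.

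Of 24 phosphatases, ubiquitin ligases and other negative regulators, 3 passed 4-fold toward granulocytes and 3 toward monocytes, with a median of 0.78. One of those toward monocytes is Matk, whose probes disagree. Pag1, the membrane adaptor that holds Csk near the family, gave 2.91, Dok2, an adaptor for a Ras inhibitor, 2.11, and Ptpn12, a tyrosine phosphatase, 2.03. Dok2 and Ptpn12 fell under 4-fold without scaling (1.24 and 1.16), with quantile normalisation (1.62 and 1.79), with normexp (1.96 and 1.89), with the authors' deposited table (1.92 and 1.85) and with spike-in scaling (1.59 and 1.52). Cblb, a ubiquitin ligase that acts on these kinases, was at least 5.54-fold lower in granulocytes, and Lax1, an adaptor of lymphocytes, at least 4.09-fold lower. Both had under 100 units of signal in monocytes, and with normexp they gave -0.44 and -0.02. Ptpn6, the phosphatase SHP-1, chosen after its value was seen, gave 0.94, and 0.06 without scaling.

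Of 35 adaptors and enzymes that act after Syk and Btk, 2 passed 4-fold toward granulocytes and 4 toward monocytes, with a median of 0.81. Rasgrp4, an activator of Ras in myeloid cells, gave 3.19, and Prkcb, protein kinase C beta, 2.68. Prkcb fell under 4-fold without scaling (1.80) and by its other probe (1.74). Skap1, an adaptor of T cells that works with Fyn, gave -4.31 on signals of 13.9 in granulocytes and 506 in monocytes. Its myeloid relative Skap2, chosen after its value was seen, gave 1.68 on signals of 36494 in granulocytes and 20790 in monocytes. Lat2, a membrane adaptor phosphorylated by Syk, gave -3.89. Gab1, a docking protein, was at least 4.31-fold lower in granulocytes, but -0.22 with normexp on a monocyte signal of 74.6.

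The substrate of Btk in myeloid and B cells, Plcg2, chosen after its value was seen, had a signal of 32874 in granulocytes and 38089 in monocytes and gave 0.66, which turned to -0.21 without scaling as Btk did. Its relative Plcg1 gave 1.46 by its brightest probe and -1.83 by another, and Nfatc2, a calcium-dependent transcription factor, had probes from -1.55 to 1.39. The direction of Plcg1 and Nfatc2 is therefore unsettled.

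Of 18 cytoskeletal substrates, 3 passed 4-fold toward granulocytes and 2 toward monocytes, with a median of 1.38. Pxn, the focal adhesion protein paxillin, gave 2.61, Nedd9, a docking protein of adhesion sites, 2.56, and Hcls1, a cortactin relative of blood cells, 2.22. Each of the 3 fell under 4-fold without scaling (1.73, 1.69 and 1.35), and Hcls1 also with quantile normalisation (1.62) and spike-in scaling (1.70). Abi3, a component of a complex that drives actin branching, gave -2.54, and Arhgap35, a GTPase-activating protein phosphorylated by Src, -2.53, which came to -1.57 with normexp.

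**Figure D5:**
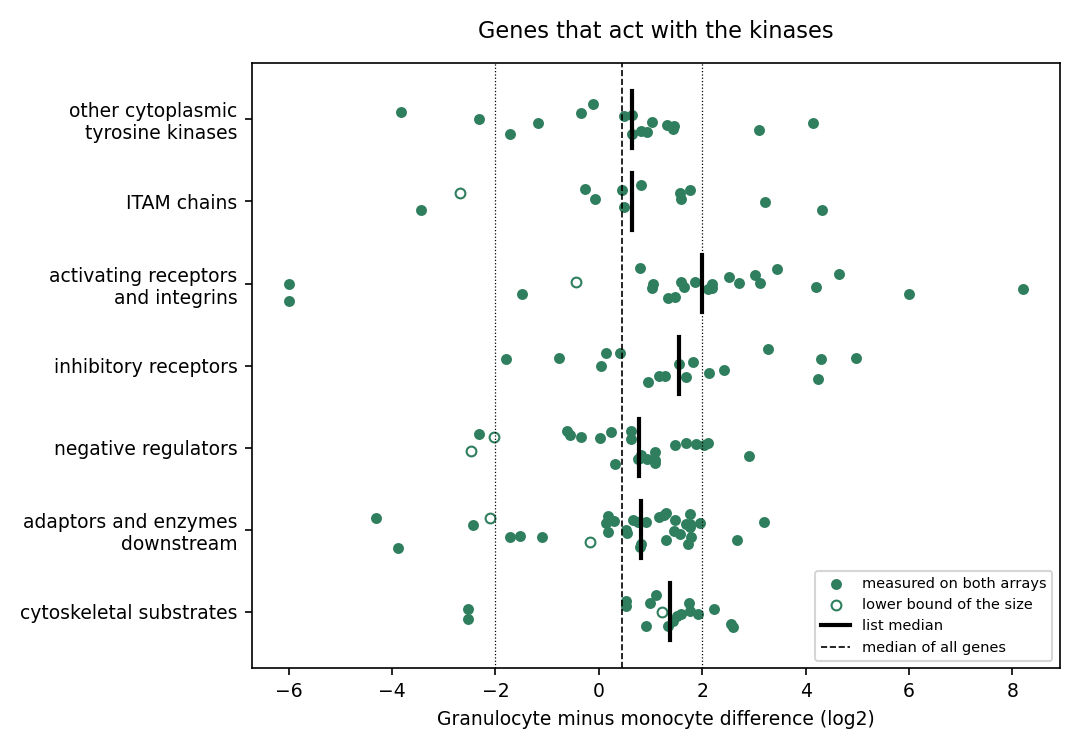
Granulocyte minus monocyte difference of the genes that act with the kinases, in 7 lists, 1 point a gene, with open points for bounds and a black bar for the median of each list. Dotted lines mark 4-fold and the dashed line the median of all genes (0.44). List medians run from 0.65 to 1.99 and each list has genes on both sides of 0; without scaling every difference lies 0.87 lower.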

How the data were processed

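Gene expression was measured on 1 single-colour array for each of the 2 cell types. The software that read the scans was Agilent Feature Extraction 10.5.1.1, per the file headers, and the deposited intensity of a spot had its background subtracted and spatial trends removed, with no normalisation between arrays. The value table deposited by the authors held log2 values and equalled log2 of that intensity plus 1 constant per array (-0.24 for granulocytes, -0.92 for monocytes), with 100.0% of single-spot probes within 0.01 and column medians of 4.80 on both; the sources used here do not state the rule behind its centring. The amplification started from 0.5 µg of RNA, per the labels.

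Control spots and outlier spots (143 in granulocytes, 103 in monocytes) were dropped, and 0 gene spots were saturated. Log2 intensity minus the array's 75th percentile was averaged over spots, and a probe printed 10 times counted as above background when more than 50% of its kept spots were. Probes well above background were 63.9% in granulocytes and 68.2% in monocytes. Of 41089 probes with a value, 24085 were named by accession through RefSeq (GRCm38.p6), 6234 by current symbol and 2386 by older symbol, 411 listed several genes and 8058 stayed unnamed. Where a gene had several probes, the 1 above background on more arrays stood for it, and among equals the brightest, and the median SD between probes of a gene was 0.23 (5330 genes).

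Where 1 array was not well above background, the bound is the bright value minus the higher of that array's lowest level among probes well above background (-5.16 in granulocytes, -6.04 in monocytes) and the dim probe's own. The genes named are all 9 members, up to 4 genes each way of at least 4-fold per list, genes whose probes differed 2-fold or more in opposite directions, and the 2 nearest kinases to each member measured on both arrays; others are marked where they stand. Some genes that meet this rule are not reported here but enter the counts and medians. The members and the lists were chosen with earlier results of these data known. The steps were tested on simulated data. Alternatives were other scalings, normexp background correction with limma 3.58.1 (R 4.3.3), the deposited value table, other filters on dim probes, the mean over probes and other sizes of a call; scaling to 9 spike-in controls was chosen after seeing the data. Python 3.11.15 with pandas 2.3.3 and numpy 2.4.6 did the rest.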

Additional observations from a re-analysis of the deposited data

How the results depend on the processing

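No paired analysis was possible because each cell type had 1 array and the labels give no replicate numbers. Kinase genes at least 4-fold higher in granulocytes numbered 2, and 4 at 2-fold, 0 at 8-fold, 0 without scaling, 0 with spike-in scaling, and 1 each with quantile normalisation, with normexp and with only probes above background on both arrays. Those at least 4-fold higher in monocytes numbered 2, and 1 with normexp and 1 with only probes above background on both arrays. Over all genes, those higher in granulocytes numbered 1323, and 4469 at 2-fold, 518 at 8-fold, 577 without scaling, 869 with normexp and 782 with spike-in scaling; those higher in monocytes numbered 1614, and 3240 at 2-fold, 662 at 8-fold, 2997 without scaling, 889 with normexp and 2362 with spike-in scaling. The kinase genes with a positive difference numbered 7, and 4 without scaling. The medians of all 7 lists lay above that of all genes under each setting tried. Scaling moves every difference by 1 amount and the filter drops Fyn and Yes1, which by construction account for the changes with each. Normexp replaces the background subtraction and adds an offset of 50 that shrinks dim differences, and their parts in its changes were not tested apart. The cause of the change with quantile normalisation was not tested. Of 399 single gene values under alternatives, 248 moved by less than the spread between probes or the spot error and 151 by more, and of 63 list medians 42 and 21. Signals near background limit Yes1, Blk, Src and, in granulocytes, Fyn and Lck. Spread between mice could not be estimated.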
